A study of Mus musculus with 20 samples.

Results

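Of 101406 regions of open chromatin found across the series, 3199 were open in homeostasis, 1 week after a first wound and 1 week after a second wound, and had no peak 8 weeks after the first wound. They were chosen by presence and absence of the authors' peaks: a union region had to share at least 1 bp with a peak of each of the 3 other stages and none with a peak of the 8-week list. The 29213 regions held by the 3 other stages are called three-stage regions below, and 26014 of them were also present at 8 weeks. The share missing at 8 weeks was thus 11.0% (Wilson 95% interval 10.6 to 11.3%, counting error only), and it is the background for each count of missing regions below. The 8-week list chose these regions, so their absence from it is a description and not a finding.

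ATAC-seq, in which the Tn5 transposase cuts accessible DNA and tags it for sequencing, was applied to sorted tail epidermis cells of Lrig1CreER/Rosa-TdTomato mice. All groups share this genotype, a Cre recombinase tied to Lrig1 with a red fluorescent reporter, and all cells carry the label Lrig1 GL Sca1+. The labels do not spell out GL or say where in the epidermis the sorted cells lay. The 20 libraries form 10 groups of 2: homeostasis, 1 and 8 weeks after a first wound, 1 week after a second wound, PRT4165 and its vehicle, wound with UVB and UVB alone, and cells cultured from a distal memory region and from a control region. The 2 cultured groups came from mice 8 weeks after a first wound, and PRT4165 blocks the ubiquitin ligase of Polycomb repressive complex 1. Each group has 1 list of peaks that combines both libraries, and the labels do not say whether the libraries came from separate animals. Replicate error is therefore unknown for every value, and none of the differences below carries a test.

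Open regions away from gene starts are mostly enhancers, which transcription factors hold open and whose accessibility marks cell identity and past activation. In skin, some enhancers opened by inflammation or wounding stay accessible long after repair, and Lrig1-expressing cells of the upper follicle are known to contribute to wound closure. A region that is absent from a list of peaks may be closed, or may be open below the limit that the list sets.

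The 8-week list was the shortest of the 10, with 34644 regions. Homeostasis had 35195, 1 week 49078 and the second wound 42200, and the longest list, UVB, 73340. The sequencing depth behind the lists is not stated in the labels used here. Krt14, Krt5, Lrig1 and Ly6a, the gene of Sca1, had a region within 1 kb of a gene end in each of the 10 lists. Trp63 had 7 regions within its span in homeostasis, 12 at 1 week, 6 at 8 weeks and 8 after the second wound. The Y-linked genes Ddx3y, Uty and Eif2s3y had a region at their ends in both 1-week lists, both cultured lists and that of wound with UVB, and none in the other 5 lists. On chromosomes 1 to 19 alone, 3145 regions were missing only at 8 weeks, again 11.0% of three-stage regions.

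Promoter sequences are shown for 5 genes whose start lies under a region missing at 8 weeks. Gtf3c3, Magoh and Akr1e1 carry 3 of the strongest such regions, judged by the lowest of a region's 3 stage ranks, while Areg and Irs1 belong to growth factor signalling. Each run is the RefSeq window of 250 bases before to 50 bases after the gene start on GRCm38.p6, the assembly of mm10, written 5′ to 3′ on the gene's strand. Capitals mark the matches to KLF, NFY, CEBP, CRE, TEAD and E-box motifs, whose letters are given further below.
Gtf3c3 promoter, chr1:54438977-54439276, minus strand: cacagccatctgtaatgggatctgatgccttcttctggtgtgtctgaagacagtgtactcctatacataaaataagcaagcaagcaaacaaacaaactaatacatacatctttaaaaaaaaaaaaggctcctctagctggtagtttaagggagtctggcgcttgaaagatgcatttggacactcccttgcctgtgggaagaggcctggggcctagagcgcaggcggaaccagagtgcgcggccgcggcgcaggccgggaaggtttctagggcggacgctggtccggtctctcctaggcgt
Magoh promoter, chr4:107879505-107879804, plus strand: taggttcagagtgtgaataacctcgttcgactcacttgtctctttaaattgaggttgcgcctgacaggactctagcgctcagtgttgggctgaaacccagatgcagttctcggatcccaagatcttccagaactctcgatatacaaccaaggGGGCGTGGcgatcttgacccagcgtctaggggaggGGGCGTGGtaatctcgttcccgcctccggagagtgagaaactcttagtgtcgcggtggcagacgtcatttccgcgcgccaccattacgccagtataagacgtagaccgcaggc
Akr1e1 promoter, chr13:4609115-4609414, minus strand: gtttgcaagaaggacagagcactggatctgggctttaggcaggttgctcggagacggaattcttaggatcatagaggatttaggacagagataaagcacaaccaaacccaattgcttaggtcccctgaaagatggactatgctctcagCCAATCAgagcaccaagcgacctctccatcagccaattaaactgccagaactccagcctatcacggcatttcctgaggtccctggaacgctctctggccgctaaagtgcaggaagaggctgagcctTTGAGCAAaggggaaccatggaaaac
Areg promoter, chr5:91139349-91139648, plus strand: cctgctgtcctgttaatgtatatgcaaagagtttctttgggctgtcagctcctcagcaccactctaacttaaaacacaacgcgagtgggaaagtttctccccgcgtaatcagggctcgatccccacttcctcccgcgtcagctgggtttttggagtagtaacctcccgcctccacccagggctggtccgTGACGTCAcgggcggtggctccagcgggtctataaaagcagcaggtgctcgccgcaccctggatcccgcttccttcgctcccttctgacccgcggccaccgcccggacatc
Irs1 promoter, chr1:82291390-82291689, minus strand: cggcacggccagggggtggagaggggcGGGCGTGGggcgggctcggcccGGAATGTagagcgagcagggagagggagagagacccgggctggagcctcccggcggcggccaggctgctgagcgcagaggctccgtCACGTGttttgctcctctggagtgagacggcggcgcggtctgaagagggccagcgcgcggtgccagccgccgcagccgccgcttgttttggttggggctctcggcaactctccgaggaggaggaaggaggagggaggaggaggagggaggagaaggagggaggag
The Magoh window held 2 KLF matches and the Irs1 window 1 match each to KLF, TEAD and E-box. The Areg window held a CRE match, the Akr1e1 window an NFY and a CEBP match, and the Gtf3c3 window none of the 20 motifs searched.

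The 5 regions over these promoters differed widely in strength. The signal value is the authors' enrichment per peak, and its rank is the share of the same list's regions with a lower value. Gtf3c3, a subunit of the RNA polymerase III factor TFIIIC, had 15.8 in homeostasis, 14.4 at 1 week and 16.9 after the second wound, and its rank was 87.1 or higher in all 3 lists. Magoh, of the exon junction complex, had 14.1, 13.0 and 13.9 at these stages. Akr1e1, an aldo-keto reductase, had 15.8, 12.8 and 18.0. These regions stood in the upper part of all 3 lists and were also held by all 6 lists of other treatments.

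Areg encodes amphiregulin, a ligand of the EGF receptor that keratinocytes make. Its region had 9.64 in homeostasis, 7.92 at 1 week and 8.53 after the second wound, with ranks of 56.4, 38.4 and 40.3. It had 10.8 in cultured distal memory and 11.2 in cultured control cells. Irs1, the adaptor of the insulin and IGF1 receptors, had 7.12, 9.002 and 8.58 at the 3 stages, and 10.4 in distal memory and 10.2 in control cultures. Both regions thus lay in the middle or lower part of the stage lists and were present in every list but that of 8 weeks.

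The 20 motifs were searched on both strands of all 32851 RefSeq promoter windows, matches to different motifs may overlap, and a match is not evidence of binding. They were AP-1 TGANTCA, CRE TGACGTCA, RUNX TGTGGTT, ETS CCGGAAGT, the GATA motif AGATAAG, FOX TGTTTAC, SOX CATTGTT, TCF CTTTGAA, TEAD GGAATGT, KLF GGGCGTGG, SP GGGGCGGGG, GRHL AACCNGTT, CEBP TTGCNCAA, NFY CCAATCA, HOX TTTATGG, the E-box CACGTG, and the longer consensus motifs of NFI, NRF1, p63 (a half-site pair) and CTCF (its core). Of the windows, 570 lay under a region missing at 8 weeks by at least 150 bases and 10497 under a region present at all 4 stages. Their median GC content was 62.0% under missing regions, 62.3% under regions present at all 4 stages and 52.7% over all windows. The 570 windows fell on 472 missing regions and the 10497 on 7840 regions present at all 4 stages. Windows that share a region are not independent, so the intervals below are too narrow.

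NFY matched 5.44% of windows under missing regions (95% interval 3.86 to 7.62%), 11.6% under regions present at all 4 stages and 7.82% of all windows. KLF matched 6.49% (4.75 to 8.82%) under missing regions, 11.5% under those present at all stages and 5.33% of all. These 2 motifs showed the widest gap, in percentage points, between the regions missing at 8 weeks and those present at all stages. AP-1 matched 7.02% (5.20 to 9.41%), 5.001% and 7.81% in the same order, CEBP 3.68%, 2.32% and 2.94%, and TEAD 3.86%, 2.54% and 3.85%. HOX matched 3.33% (2.14 to 5.15%) under missing regions, against 1.37% under those present at all stages and 2.75% of all windows, and SOX 3.16%, 1.57% and 3.78%. ETS matched 6.84%, 9.43% and 3.89%, CRE 1.93%, 3.55% and 1.79%, RUNX 3.16%, 3.16% and 5.27%, TCF 2.98%, 3.20% and 5.14%, and the E-box 10.5%, 10.9% and 7.15%. SP matched 23.0%, 23.7% and 11.4%, NRF1 1.40%, 2.38% and 0.971%, GATA 0.877%, 1.31% and 3.04%, and FOX 1.75%, 2.49% and 3.65%. GRHL matched 1.23%, 1.92% and 2.09%, the CTCF core 2.11%, 3.03% and 1.81%, the p63 pair 0.175%, 0.191% and 0.712%, and NFI 0 of 570 windows, 0.00953% and 0.0365%. No motif share was compared at equal signal.

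The missing regions ranked low in the 3 stage lists that chose them and near the middle of the other lists that held them. A rank depends on the length of its list, which was 35195 regions in homeostasis, 49078 at 1 week and 70008 with vehicle. Ranks therefore compare the sets of regions within a list, not strength between lists. Their median signal value was 7.25 in homeostasis, 8.28 at 1 week and 8.04 after the second wound, against 10.2, 11.2 and 11.1 for regions present at all 4 stages. As ranks within a list these medians were 28.5, 42.4 and 34.2 for missing regions, against 61.3, 69.3 and 65.2. In the fresh lists that did not choose them, the missing regions had median ranks of 55.0 with PRT4165, 57.5 with vehicle, 54.1 with wound and UVB and 57.1 with UVB, against 75.4, 76.8, 72.5 and 75.4. In cultures their median ranks were 44.3 in distal memory and 46.5 in control, against 66.4 and 69.3. Among three-stage regions only, the missing ones had median ranks of 21.3, 25.2 and 23.2, against 54.5, 53.6 and 53.8. A missing region had its highest rank in homeostasis in 19.01% of cases, at 1 week in 52.5% and after the second wound in 28.5%, against 24.9, 45.1 and 30.0% for regions present at all stages. The 1-week list was the longest of these 3. Missing regions were also narrower, with a median width of 763 bp against 951 bp.

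**Figure D1:**
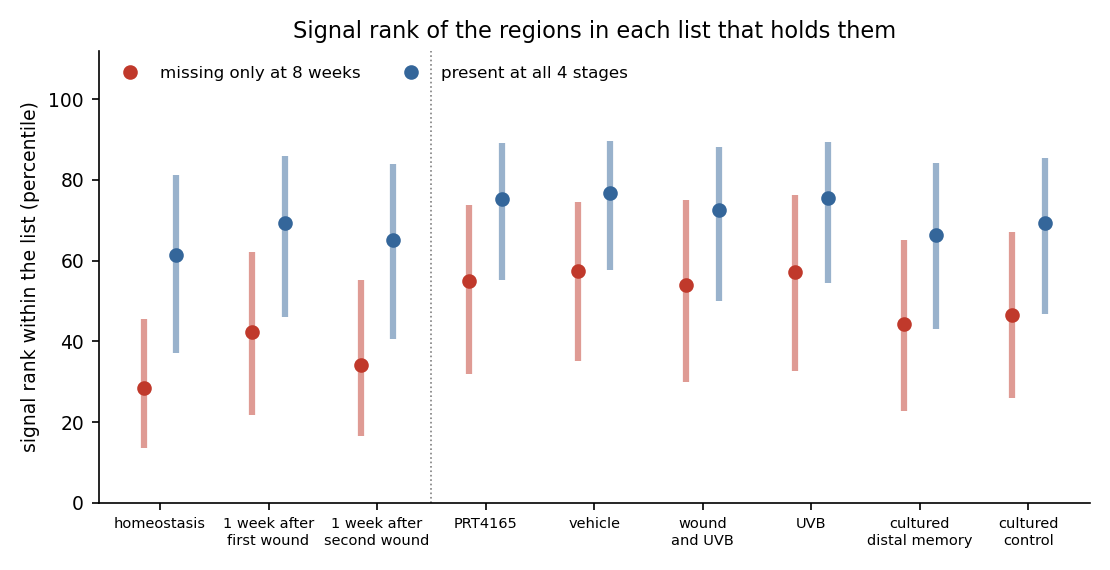
Rank of the authors' signal value within each list (percentile, vertical axis) for regions missing only at 8 weeks (red) and regions present at all 4 stages (blue), in the 9 lists that can hold both; points are medians and bars run from the lower to the upper quartile. Left of the dotted line stand the 3 lists that chose the regions, and the red medians lie below the blue ones in all 9 lists, at 28.5 against 61.3 in homeostasis.

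The share missing at 8 weeks was lower in each stronger class. In 5 equal classes of three-stage regions ordered by homeostasis signal value, 26.0% of the weakest class were missing, then 16.5, 8.82 and 2.89%, and 0.531% of the strongest. The weakest class held 1520 of the missing regions and the strongest 31. The homeostasis list took part in the rule, so these shares are a description.

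**Figure D2:**
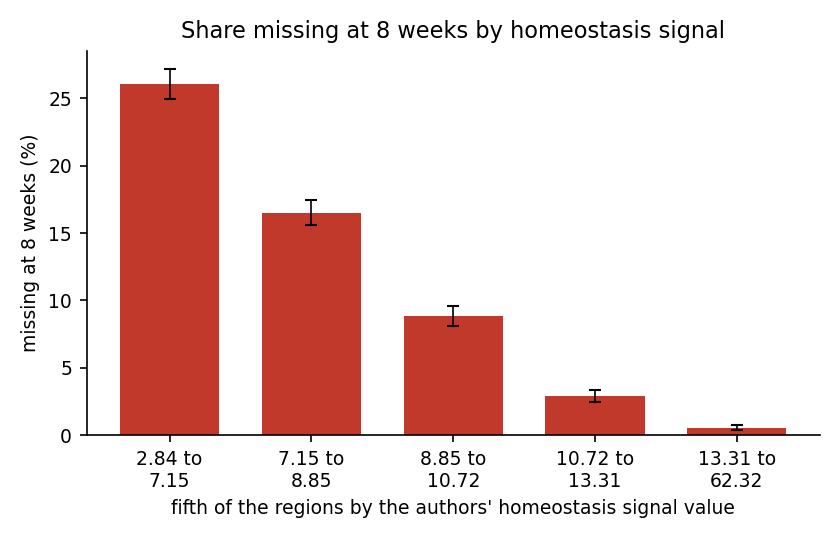
Share of three-stage regions missing at 8 weeks (%, vertical axis) in 5 equal classes by the authors' homeostasis signal value (horizontal axis, range of each class), with Wilson 95% intervals as error bars. The share was 26.0% in the weakest class and 0.531% in the strongest.

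Other stages also lacked regions that the remaining 3 held. Regions missing only in homeostasis numbered 3324, or 11.3% of those held by the 3 other stages. Only 278 regions, 1.06%, were missing only at 1 week, and 1274, 4.67%, only after the second wound. The 2 shorter lists, 8 weeks and homeostasis, thus lacked the most. With every list limited to its 34644 strongest regions, 2186 regions were missing only in homeostasis, 1635 only at 1 week, 1967 only at 8 weeks and 1210 only after the second wound.

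The missing regions were mostly found again in freshly sorted cells of other treatments, which had no part in choosing them. The PRT4165 list held 97.1% of missing regions and 99.8% of those present at all 4 stages, against 65.3% of all union regions. The vehicle list held 98.6% and 99.9%, against 67.1% of all union regions. Wound with UVB held 96.3% and 99.7%, against 63.5%, and UVB alone 98.7% and 99.9%, against 70.7%. All 4 of these lists held 2955 of the 3199 missing regions, 92.4%, against 99.4% of regions present at all 4 stages. In none of the 6 lists outside the wound course were 2 missing regions and 1 present at all stages. The 4 fresh lists hold between 66541 and 73340 regions each, against 34644 at 8 weeks. With lists of equal length, vehicle held 83.4% of the regions then missing and 92.9% of those present at all 4 stages. For PRT4165 these shares were 80.3% and 91.2%, for wound with UVB 79.1% and 87.8%, and for UVB 78.5% and 87.6%. The union regions also count those found in a single list.

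Cultured cells differed from fresh cells. Cultured distal memory cells held 49.3% of missing regions (47.6 to 51.0%) and 74.7% of regions present at all 4 stages (74.2 to 75.2%), against 44.0% of all union regions. Cultured control cells held 56.3% (54.5 to 58.0%) and 78.8% (78.3 to 79.3%), against 52.2% of all union regions. Present in all 4 fresh lists and in neither culture were 1190 missing regions, 37.2%, against 19.7% of regions present at all stages. Missing regions found in 1 culture were in cultured distal memory alone in 75 cases and in cultured control alone in 298, and regions present at all stages in 303 and 1365. The control list is the longer of the pair, with 54188 regions against 45714 in distal memory.

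**Figure D3:**
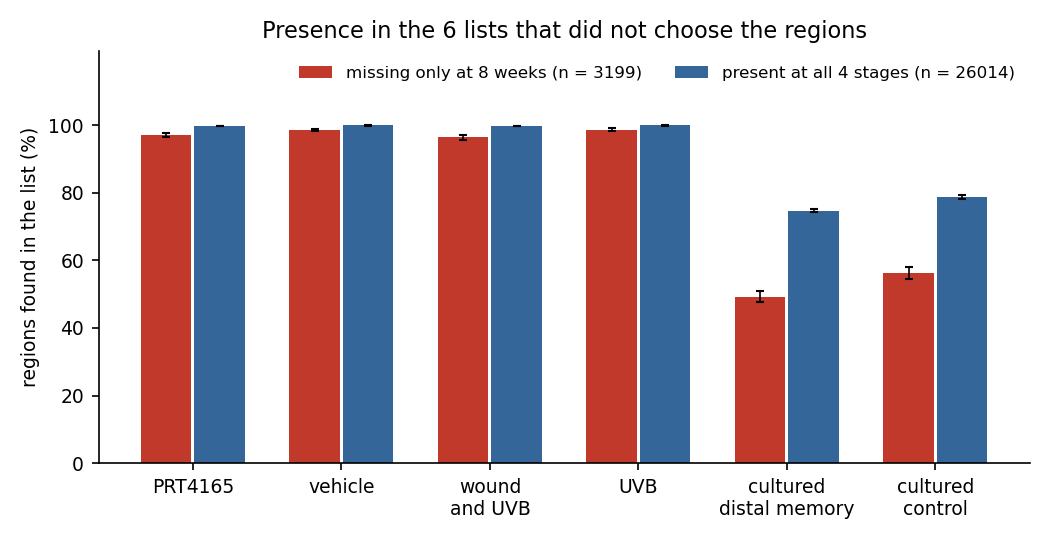
Share of regions found in each of the 6 lists that did not choose them (%, vertical axis), for regions missing only at 8 weeks (red) and present at all 4 stages (blue), with Wilson 95% intervals as error bars. All fresh lists hold 96.3% or more of the red set, while cultured distal memory holds 49.3% and cultured control 56.3%.

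The lower presence in cultures was seen within each signal class and away from gene ends. In the weakest class, cultured distal memory held 44.6% of missing regions and 60.5% of regions present at all stages, and cultured control 51.3% and 66.4%. In class 3, the middle one, these shares were 57.9% and 72.3% for distal memory and 64.3% and 76.6% for control. In the strongest class, with 31 missing regions, they were 64.5% and 90.7%, and 71.0% and 92.9%. Among regions over 1 kb from a gene end, distal memory held 43.2% and 64.6%, and control 50.6% and 70.0%.

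**Figure D4:**
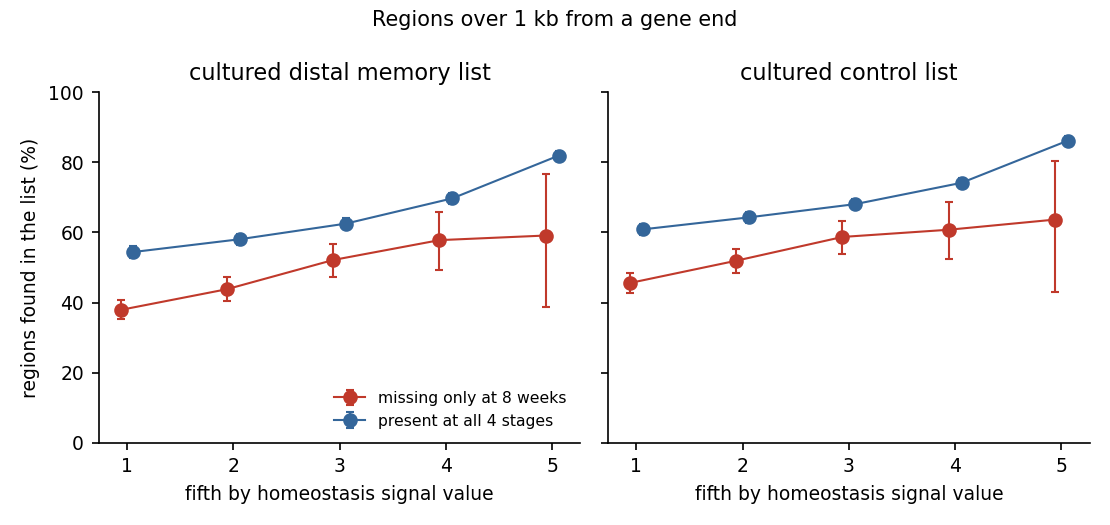
Share of regions over 1 kb from a gene end that were found in the cultured distal memory list (left) and the cultured control list (right), in 5 classes by homeostasis signal value (1 weakest, 5 strongest), for regions missing only at 8 weeks (red) and present at all 4 stages (blue), with Wilson 95% intervals. The red points lie below the blue ones in every class, at 37.9% against 54.4% for distal memory and 45.6% against 60.8% for control in class 1.

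Regions missing at another single stage were also held less often by the cultures than regions present at all 4 stages. Those missing only in homeostasis were found in 40.3% of cases in distal memory and 46.7% in control cultures. Those missing only at 1 week were found in 47.8% and 58.6%, and those missing only after the second wound in 55.2% and 61.2%. The values of the regions missing only at 8 weeks, 49.3% and 56.3%, lay within this range. With lists of equal length the cultures lay close, at 44.0% (41.8 to 46.2%) for distal memory and 43.0% (40.8 to 45.2%) for control. Regions present at all 4 stages were then held in 71.1% and 71.2% of cases.

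The rank in the vehicle list followed the homeostasis class in both sets. Missing regions of the weakest class had a median vehicle rank of 35.9, against 36.7 for regions present at all stages. In classes 2 and 3 the missing regions ranked higher, at 64.2 against 60.5 and 77.0 against 72.8. In class 4 they ranked lower, at 80.3 against 83.9, and in the strongest class, with 31 missing regions, they ranked at 95.8 against 94.5. In the PRT4165 list the missing regions likewise ranked higher in classes 2, 3 and 5 and lower in classes 1 and 4. In the wound with UVB and UVB lists they ranked higher in all 5 classes, at 63.2 against 53.6 in class 2 of wound with UVB. In class 1 of UVB they ranked at 33.62 against 33.55.

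Missing regions lay farther from gene ends. Of them 17.7% (16.4 to 19.02%) had their summit within 1 kb of an end of a protein-coding gene, against 32.4% (31.9 to 33.0%) of regions present at all 4 stages. The share inside a gene span was 50.6% against 51.5%, and the share over 100 kb from any gene 8.41% against 6.33%. Their median distance to a gene end was 12957 bp, against 7632.5 bp. Read the other way, 13.0% of three-stage regions over 1 kb from a gene end were missing, and 6.27% of those within 1 kb. In the weakest signal class this difference was small, with 26.2% missing away from gene ends and 25.2% at gene ends. In classes 2 to 5 the shares missing away from gene ends were 17.6, 10.1, 3.59 and 0.760%, and at gene ends 12.4, 5.44, 1.63 and 0.305%. As a share of each set, gene ends held 15.7% of missing regions against 21.9% of those present at all stages in class 2. The same shares were 17.3% against 29.0% in class 3, 20.1% against 36.1% in class 4 and 29.0% against 50.6% in class 5.

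Few missing regions lay close to an 8-week peak. The nearest 8-week region lay at a median distance of 8926 bp, and 95 missing regions had one within 200 bp. Just inside the rule stood a region in Inpp4b, 19 bp from an 8-week peak, with 8.62 in homeostasis, and a region near Abhd5, 32 bp away, with 4.80. Union regions were merged from all lists, so each 8-week peak lay wholly inside its union region. The bases shared were thus the width of the 8-week peaks and do not measure nearness to the rule's limit. In 24 of the 26014 regions present at all stages, the 8-week and homeostasis peaks did not touch. The smallest overlaps were those of 2 narrow regions that 8-week peaks covered almost wholly: a chromosome 4 region of 181 bp with no gene within 100 kb, which shared 179 bp and had 3.22 in homeostasis, and a region of 190 bp near Fbln1, which shared 183 bp and had 14.2.

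Along the chromosomes the missing regions were spread out. The share missing ran between 9.81% on chromosome 18 and 13.5% on chromosome 11, and was 10.7% on X. After a missing region the next three-stage region was missing in 12.4% of cases (11.3 to 13.6%), and after a region present at all stages in 10.8% (10.4 to 11.2%). In 9 places 4 neighbouring three-stage regions in a row were missing.

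One such run lay in the type I keratin cluster of chromosome 11 and is described because of its values. Krt10 encodes the keratin of the differentiating layers, and its region at chr11:99398658-99399375, 1574 bp from the gene, had 7.57 in homeostasis, 11.2 at 1 week and 9.72 after the second wound. The region near Krt222 had 8.52, 10.8 and 12.6, that near Krt24 8.84, 10.5 and 11.0, and that near Krt12 6.73, 8.69 and 6.86. All 4 had values between 9.47 and 13.7 in the fresh lists of other treatments, and none was in either cultured list. The other runs lay at or near Ptprc, Trim2 and Fhdc1, Dhrs3 and Vps13d, Mrvi1, Ryk and Slco2a1, Pecam1, Dusp22, and Pak3.

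By the lowest of its 3 stage ranks, the strongest missing region lay inside Kcnq1, a voltage-gated potassium channel, at chr7:143367713-143368661. It had 21.6 in homeostasis, 23.7 at 1 week and 33.4 after the second wound, and ranked at 99.4 or higher in each. It had 17.6 with PRT4165, 20.02 with vehicle, 20.8 with wound and UVB and 19.7 with UVB, and 13.1 in distal memory and 10.2 in control cultures. Every list but that of 8 weeks held it, and the nearest 8-week region was 39057 bp away.

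A 200 bp region inside Prkdc, the catalytic subunit of DNA-dependent protein kinase, had 17.7, 19.8 and 31.7 at the 3 stages and, of the 6 other lists, was held by vehicle alone, at 8.55. A 195 bp region inside Sepsecs, which makes selenocysteine transfer RNA, had 13.0, 17.8 and 39.0, and 8.29 with vehicle alone. Both had their highest rank after the second wound, were absent with PRT4165 and were short: 3 of the 3199 missing regions were 200 bp or less. The remaining strongest regions lay inside Myh1, a skeletal myosin, and near Phospho2, a phosphatase. The Myh1 region had 15.5, 19.4 and 18.1 and was in neither culture, and the Phospho2 region had 14.4, 14.9 and 17.1 and was in both. A region inside Lama3, the alpha chain of the basement membrane laminin of skin, also stood among the 6 strongest by lowest rank, with 14.0, 14.9 and 17.9 at the 3 stages.

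The 2 missing regions found in none of the 6 other lists lay inside Dock2, a Rac activator of leukocytes, and near Ric8b, a chaperone of G proteins. The Dock2 region had 10.02 in homeostasis, 7.11 at 1 week and 7.42 after the second wound. The Ric8b region had 7.01, 7.56 and 10.7. Among the 6 strongest missing regions within 1 kb of a gene end, that of Tspan3, a tetraspanin, had 13.1, 14.3 and 13.7 and was in all 6 other lists. Those of LOC115490200, with 13.9, 16.2 and 19.3, and of Paip2, with 12.8, 12.6 and 14.1, were also in all 6.

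By gene, 2930 of the missing regions were assigned to 2416 protein-coding genes within 100 kb, and 2016 of these genes had 1. Most of these genes kept other open regions: 1881 of them had at least 1 region present at all 4 stages, while 411 had no region in the 8-week list. Assignment is by position and does not show control of a gene. Only 25 genes lacked 4 or more regions. Dlg2, a scaffold of cell junctions and synapses, lacked 5 of 13 three-stage regions at 8 weeks, with homeostasis values from 6.68 to 16.6. Atp10a, Nfia, Rapgef4, Erc2, Eml4, Atxn1 and Xylt1 lacked 4 each, of 9, 11, 15, 8, 8, 14 and 9 regions.

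Among genes with at least 5 three-stage regions, Adgrf1, an adhesion G protein-coupled receptor, had the highest share missing, 4 of 5. Its 4 regions had between 6.90 and 8.38 in homeostasis, and 2 of them were in both cultures. Pecam1, Tulp4, Pak3, Lgalsl, Wnt10a, Ablim3 and Mrvi1 followed with 4 of 6 each. Those of Tulp4 were all in the fresh lists, while distal memory held none and control 1. Those of Lgalsl were held by both cultures in 3 of 4 cases, with 15.2 in distal memory and 18.0 in control for the strongest. All 8 genes had regions in the 8-week list. It held 6 at Ablim3, 5 each at Pecam1 and Lgalsl, 4 at Adgrf1, 3 at Tulp4, and 2 each at Pak3, Wnt10a and Mrvi1.

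Gene lists of skin biology are described by their count of missing among three-stage regions, beside the 11.0% over all of them. They cover 24 groups and 435 genes, of which 431 were found in the reference table. Because the 8-week list made the rule, these counts support nothing about the groups; they say where the missing regions lie.

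**Figure D5:**
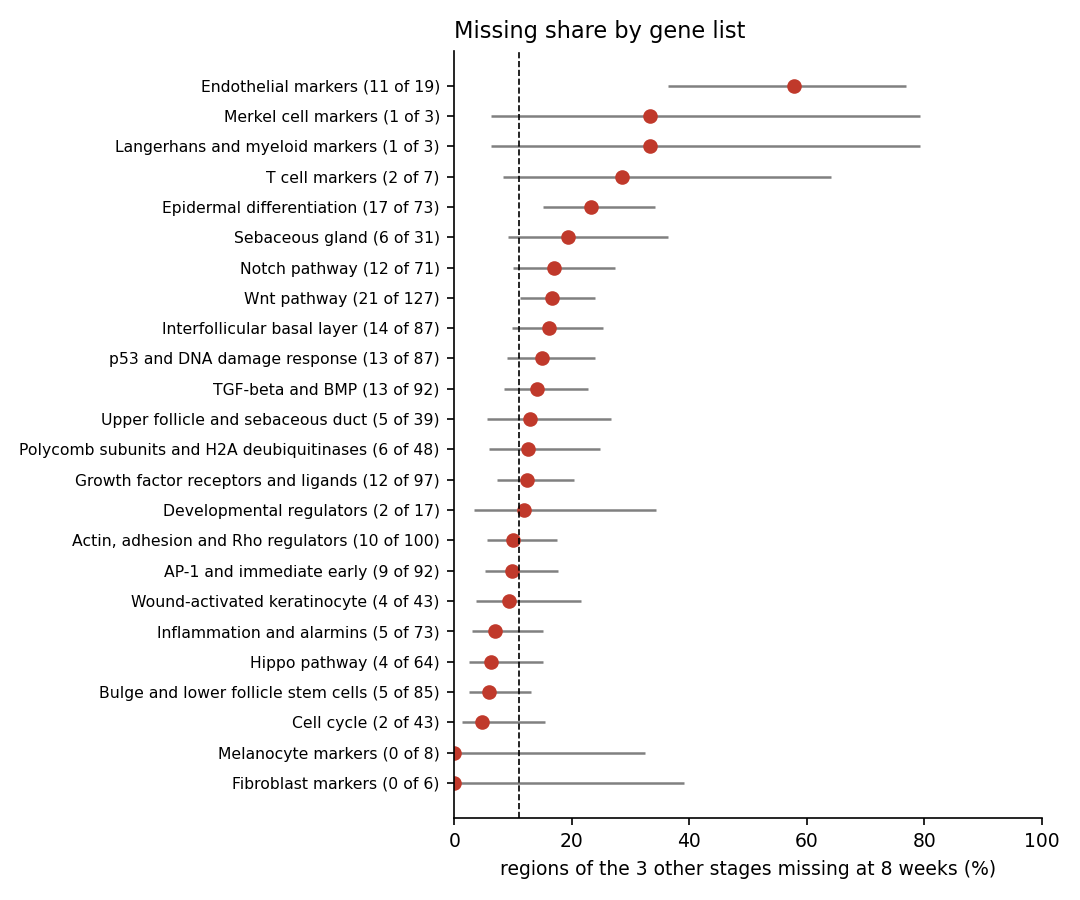
Share of three-stage regions missing at 8 weeks (%, horizontal axis) among regions assigned to the genes of each list, with missing and three-stage counts in brackets, Wilson 95% intervals as lines and the share over all three-stage regions, 11.0%, as the dashed line. Endothelial markers stand highest at 57.9%. Langerhans and Merkel lists follow at 33.3% (1 of 3 each), T cell markers at 28.6% (2 of 7) and epidermal differentiation at 23.3%. Fibroblast and melanocyte lists stand at 0, and bulge, cell cycle and Hippo points lie below the line with intervals that cross it.

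Genes of epidermal differentiation, which build the cornified layers, had 17 of 73 regions missing, or 23.3% (15.1 to 34.2%). All regions of these genes numbered 94 in homeostasis, 134 at 1 week, 82 at 8 weeks and 114 after the second wound. Cebpb, a transcription factor of keratinocyte differentiation, lacked 4 of 9, with homeostasis values of 6.64, 4.76, 4.74 and 5.74. These lay 8822, 5045, 35671 and 69753 bp from the gene. Prdm1, the repressor Blimp1, lacked 3 of 7, with homeostasis values of 7.16, 6.68 and 8.35 and values after the second wound of 8.01, 10.6 and 11.4. Sprr1b, a cornified envelope protein, lacked its only three-stage region, which had 9.47 in homeostasis, 11.8 at 1 week and 11.4 after the second wound. Pkp1, a desmosomal plakophilin, lacked 2 of 11, and Lor, which encodes loricrin, 1, with 6.08 in homeostasis. Of the 17 regions, all were in the 4 fresh lists, 9 in distal memory and 10 in control cultures, against 40 in each culture of the list's 56 regions present at all stages.

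Basal layer genes had 14 of 87 missing, 16.1% (9.83 to 25.2%). Trp63, the master regulator of stratified epithelium, lacked 3 of 11. Its 3 regions had 8.18, 6.01 and 6.38 in homeostasis, 9.74, 11.7 and 6.33 at 1 week, and 8.87, 12.9 and 5.70 after the second wound. The first of them lay 90911 bp from the gene and the others inside its span. All were held by every fresh list, with 23.7, 16.8 and 8.01 for wound with UVB, and none was in either culture. Col17a1, the hemidesmosome collagen, lacked 2 of 5, both found in both cultures, and Ccnd2, a cyclin of G1, 2 of 4. The stronger Ccnd2 region in homeostasis lay 93683 bp from the gene. Krt14 and Krt15 each lacked 1 weak region, with 5.55 and 5.30 in homeostasis. Upper follicle genes had 5 of 39 missing, 12.8%: Fst, Gata6, Krt17, Dkk3 and Lrig1 lacked 1 each. The Lrig1 region, 45299 bp from the gene, had 4.87 in homeostasis and the Gata6 region, 59481 bp from its gene, 8.74.

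Bulge and lower follicle genes had 5 of 85 missing, 5.88% (2.54 to 13.0%), 1 each for Postn, Tcf3, Nfatc1 and Foxc1 among them. Sebaceous genes had 6 of 31, 19.4%, led by the lipid droplet gene Plin2 with 2 of 6. The 2 Plin2 regions had 8.35 and 12.02 in homeostasis and were in neither culture. Over the whole sebaceous list each culture held 1 of the 6 missing regions, while distal memory held 20 and control 21 of the 25 regions present at all stages.

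Wnt genes, which drive follicle growth, had 21 of 127 missing, 16.5% (11.1 to 24.0%). Wnt10a, a ligand needed for hair and teeth, lacked 4 of 6 and kept 2 regions at 8 weeks. Its strongest missing region, at chr1:74816572-74817567, had 12.8 in homeostasis, 16.7 at 1 week and 14.8 after the second wound, and 12.1 in distal memory and 13.4 in control cultures. Its other 3 regions had 5.32, 3.95 and 4.87 in homeostasis, low in the list. Wnt7b, another ligand, lacked 3 of 12, and Znrf3 and Fzd10, an inhibitor and a receptor of the pathway, 2 each. Distal memory held 7 and control 11 of the 21 missing Wnt regions, against 65 and 68 of the 106 regions present at all stages.

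Notch genes, which promote suprabasal fate, had 12 of 71 missing, 16.9%. The receptor gene Notch1 lacked 2 of 5, with 4.07 and 5.01 in homeostasis, the ligand gene Jag2 2 of 3, with 4.71 and 3.88, and the co-activator gene Maml3 2 of 15. The region of Mfng, a glycosyltransferase that modifies Notch, was its only three-stage region and had 8.38 in homeostasis. TGF-beta and BMP genes had 13 of 92 missing, 14.1%, led by the inhibitor gene Smad7 with 3 of 7. The Smad7 regions were weak in homeostasis, with 4.71, 4.46 and 5.39. Tgfb2, a ligand, and Tgfbr2, a receptor, lacked 2 each.

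Growth factor receptors and ligands had 12 of 97 missing, 12.4%. Igf1r, the receptor of insulin-like growth factor 1, lacked 4 of 12. Its 4 regions had 9.90, 7.54, 8.24 and 6.37 in homeostasis, 11.5, 10.5, 7.18 and 8.05 at 1 week, and 10.1, 7.78, 8.35 and 7.23 after the second wound. All 4 were in every fresh list, with 17.3 and 16.8 at the strongest for wound with UVB and vehicle, and none was in either culture. Fgfr3, a fibroblast growth factor receptor, lacked 2 of 5.

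Polycomb genes had 6 of 48 missing, 12.5%. Cbx2, a chromatin-binding subunit of the complex that PRT4165 inhibits, lacked both of its three-stage regions. Its region 58 bp from a gene end had 8.70 in homeostasis, 8.01 at 1 week and 8.05 after the second wound, and 8.97 with PRT4165 and 8.88 with vehicle. Its other region had 6.19, 5.67 and 5.66 at the 3 stages. No region of Cbx2 was in the 8-week list. The p53 and DNA damage list had 13 of 87 missing, 14.9%, among them 2 each at Zmat3 and Gadd45g, which do not lead the list.

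Lists of injury and growth lay near or below the background. AP-1 and immediate early genes had 9 of 92 missing, 9.78%, with Jun and Fosb lacking 2 each. Wound-activated keratinocyte genes had 4 of 43, 9.30%, at Areg, Mmp9, Krt17 and Tnc. Inflammation genes had 5 of 73, 6.85%, among them Ccl20, a chemokine, with 6.96 in homeostasis, and Aim2. Hippo genes had 4 of 64, 6.25%, with Tead1, Lats2, Ccn2 and Ccn1 at 1 each, and cell cycle genes 2 of 43, 4.65%, Cdkn2b and E2f3. Actin and adhesion genes had 10 of 100, 10%, led by Lpp and Cdh1 with 2 each, and developmental regulators 2 of 17, 11.8%, Hoxb1 and Dlx5. The 4 missing regions of wound-activated genes were in both cultures, and distal memory held 27 and control 29 of the list's 39 regions present at all stages. Of the 9 missing AP-1 regions 8 were in each culture, as were 72 of the 83 present at all stages, a similar share.

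Markers of other cell types were looked up because a sort may hold a few such cells. Endothelial genes had 11 of 19 missing, 57.9% (36.3 to 76.9%), and 8 of 14, 57.1%, with genes assigned within 20 kb. Pecam1, the adhesion protein CD31, lacked 4 of 6, with 5.74, 6.48, 11.4 and 9.48 in homeostasis. Cdh5, which encodes VE-cadherin, lacked 3 of 3, with 9.12, 7.01 and 8.30 in homeostasis, 10.8, 6.93 and 11.4 at 1 week, and 8.87, 7.42 and 11.3 after the second wound. These lay 72779, 50481 and 1991 bp from the gene, and the 8-week list held 1 region of Cdh5. Tek, the angiopoietin receptor, lacked 2 of 4, and Cldn5, a tight junction gene, and Erg, a transcription factor, 1 each. The Cldn5 region lay 36969 bp from the gene. Of the 11 regions, distal memory held 6 and control 6, against 3 and 4 of the list's 8 regions present at all stages, and near the share of all missing regions that these cultures held.

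The endothelial list had 24 regions in homeostasis, 37 at 1 week, 20 at 8 weeks and 34 after the second wound, and between 47 and 57 in the fresh lists of other treatments. Its genes with a region numbered 8 of 10 in homeostasis, 7 at 1 week, 6 at 8 weeks and 8 after the second wound. T cell markers had 2 of 7 missing, at Ptprc with 12.02 in homeostasis and Lck with 9.02. Langerhans and myeloid markers had 1 of 3, at Cd68, and Merkel markers 1 of 3, at Rab3c. Fibroblast markers had 0 of 6 and melanocyte markers 0 of 8. Regions of such genes can also be open in keratinocytes, and the part of other cells in the missing regions was not tested.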

How the data were processed

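ATAC-seq peak lists of 10 groups of 2 libraries were analysed. The authors made 1 list per group out of its 2 libraries, and its name calls the peaks conservative and passed by IDR, a check of reproducibility between replicates. Coordinates are on mm10, per the submitters' processing notes. How reads were aligned, filtered and shifted for Tn5, which program called the peaks, and the read depth were not given in the sources used here. Per peak, the deposited lists give the authors' score, the authors' signal value of enrichment, the authors' −log10 p, and a summit offset. No column holds values per library, so groups were not tested for significance, and the Wilson 95% intervals cover counting error only.

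On chromosomes 1 to 19, X and Y, the overlapping peaks of a list were joined into regions, with the strongest peak's signal value and summit. Merging all 10 lists gave the union regions. Genes come from the RefSeq table of GRCm38.p6: a summit inside protein-coding genes was given to the shortest of them, and any other to the nearest gene end within 100000 bp. Python 3.11.15, numpy 2.4.6, pandas 2.3.3, scipy 1.17.1 and matplotlib 3.10.9 were used. The counts of union, three-stage and missing regions equalled those of bedtools 2.31.1. Tested on simulated data, the code recovered 200 of 200 planted regions.

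The regions, gene lists, motifs and named genes were chosen with earlier results of these data known. Named genes are the 12 with most missing regions, the 6 with the highest share missing among genes with at least 5 three-stage regions and 2 tied with them, the leading gene of each gene list, the 6 strongest missing regions (by the lowest of 3 stage ranks), the 6 strongest at gene ends, those in no other list, and those nearest to the rule's limit. Other genes named were chosen after their values were seen. One gene that the rule names is not reported here.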

Additional observations from a re-analysis of the deposited data

How the results depend on the processing

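The number of missing regions and the share of them held by other lists moved with the settings. At equal list length, more regions were missing only at 1 week (1635) than only after the second wound (1210), unlike with whole lists. The cultures lay close, and the intervals of distal memory (41.8 to 46.2%) and control (40.8 to 45.2%) overlapped. UVB had the lowest share among fresh lists, but its interval (76.7 to 80.3%) overlapped that of wound with UVB (77.2 to 80.8%). Within 20 kb, upper follicle genes and developmental regulators lay below the share over all three-stage regions. Where peaks had to cover 50% of a union region, 3268 regions were missing, or 13.1% of three-stage regions, and 2456 of them were among the 3199. Of these, 95.9% were held by PRT4165, 97.9% by vehicle, 95.5% by wound with UVB, 47.1% by distal memory and 53.2% by control cultures, and 21.8% lay within 1 kb of a gene end. Where presence needed the strongest 50% of each stage list, 379 regions, 2.60%, were missing, and PRT4165 held 98.9%, vehicle 99.7%, wound with UVB 98.7%, distal memory 59.1% and control cultures 63.6% of them. At equal list length the count was 1967, or 8.14%, and PRT4165 held 80.3%, vehicle 83.4%, wound with UVB 79.1%, UVB 78.5%, distal memory 44.0% and control cultures 43.0%. With no 8-week region allowed within 500 bp, 3004 regions, 10.3%, remained by construction. With vehicle in place of homeostasis, 7125 regions were missing, 19.6% of those held by vehicle and both 1-week lists. Beyond 1 kb from a gene end, a choice made after seeing the data as was that of chromosomes 1 to 19, distal memory held 43.2% and control cultures 50.6%. Within 500 bp of a gene end lay 14.3%. With genes assigned within 20 kb, 18 of 24 gene lists stayed within 1.5 times their count. Upper follicle genes then had 2 missing regions, AP-1 genes 4, p53 genes 8, and developmental regulators, cell cycle and Merkel markers 0. The cause of these shifts was not tested. No paired analysis was possible because each list pools both libraries of its group, and leaving out a replicate was not possible for the same reason. Depth is unknown, so a region may be absent from a list at its limit of detection, and signal values of different lists, given side by side, are not on a shared scale.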

Other observations

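For 411 genes the 8-week list held no region, while at least 1 three-stage region was present at the 3 other stages. They were 17.0% of the 2416 genes with a missing region, and 12322 genes had a three-stage region. Genes with no region at another single stage were not counted. The genes named here were chosen after their values were seen. Rpf2, a factor of ribosome assembly, had 2 three-stage regions, the stronger with 12.3 in homeostasis. Tnfrsf1b, which encodes TNF receptor 2, had 2, the stronger with 11.0. Kif23, a kinesin of cytokinesis, had 2, the stronger with 8.70, and Ddx58, the RNA sensor RIG-I, 2, the stronger with 7.68. Each of these genes had no other three-stage region.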
